A study of Salmo salar with 72 samples.

Results

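The comparison covers the distal intestine (DI) of Atlantic salmon (Salmo salar) smolts fed a soybean meal diet with autolyzed yeast (AWA), set against fish fed a fishmeal diet (FM). Its members were taken from the labels of tissue and diet, and they are 12 of the 72 RNA-seq libraries of the series, from 6 AWA fish and 6 FM fish. The AWA diet held 30% soybean meal (SBM) with Wickerhamomyces anomalus that had been autolyzed and spray-dried, and the FM diet was based on fishmeal. All fish were vaccinated smolts that were fed for 42 days in seawater, with 3 tanks per diet and 2 sequenced fish per tank. The labels do not name the tank of a fish. Unless a tank is named, the tests below treat the fish of a diet as independent. The series also holds the spleen of the same fish, and both tissues of fish fed 30% SBM alone (SBM), 30% SBM with spray-dried W. anomalus (IWA), and 30% SBM with inactivated or autolyzed Cyberlindnera jadinii (ICJ and ACJ). By the study's diet formulas, AWA differed from FM in soybean meal and yeast, in less fishmeal, wheat gluten and potato starch, in having no cellulose, and in added monocalcium phosphate and crystalline amino acids. In AWA|FM these cannot be told apart.

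The distal intestine of salmon is the last gut segment, and its enterocytes take up macromolecules by endocytosis and digest them in lysosomes and vacuoles. Soybean meal is known to cause an inflammation of this segment in salmon. Fishmeal is rich in taurine, a sulfur-containing acid that fish use to conjugate bile acids and as an osmolyte, and plant meals hold almost none. Animals make taurine from cysteine by way of cysteine sulfinic acid, and take it up through the transporter SLC6A6. Autolysis is the breakdown of yeast cells by their own enzymes, which frees parts of the cell content and of the wall.

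The total count of fragments on genes lay between 17422304 and 30409474 in the AWA libraries and between 12809583 and 20441787 in the FM libraries (exact two-sided permutation test of the difference, p = 0.0455). The 10 most abundant genes took between 5.74 and 7.65% of the counts in AWA and between 7.71 and 12.7% in FM (exact permutation p = 0.00216, the smallest that 6 against 6 fish allow). Levels are given as CPM, the counts scaled to a common library total after TMM scaling, which limits but does not remove the effect of such differences. The bile acid transporter slc10a2, a marker of the distal gut, was high in all 12 libraries, with 1432 to 1998 CPM in AWA and 910 to 2499 CPM in FM. The peptide transporter slc15a1, a marker of the proximal gut, had 10 CPM or more in 4 libraries, namely 22.4 CPM in AWA replicate 2 and 32.0, 170 and 313 CPM in FM replicates 1, 4 and 5, and at most 1.44 CPM in the other 8. The hindgut Hox gene hoxa13aa, looked up after the data were seen, had at most 0.218 CPM in these 4 and in AWA replicate 5, and 3.29 CPM or more in the other 7. The planned list of posterior Hox genes, with 30 members matched, did not separate the libraries in this way. It summed to 185 to 318 CPM in AWA, with 185 CPM in AWA replicate 2. In FM it summed to 130 to 180 CPM in replicates 1, 4 and 5 and to 153 to 468 CPM in the others. Libraries with 10 CPM or more of slc15a1 were found for every diet, 2 of 6 in SBM, 1 in IWA, 2 in ICJ and 3 in ACJ. For slc15a1 in AWA against FM, the exact permutation test on the log2 scale gave p = 0.126. With 6 fish per diet, this does not show that gut position was alike in the 2 diets. By the file headers, the counting of FM replicates 3, 4 and 5 was run in a separate folder. The part of depth, gut position and folder in the results was not tested.

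In AWA|FM, 684 genes were higher and 413 lower in AWA by edgeR's quasi-likelihood test at a Benjamini-Hochberg adjusted p under 0.05, out of 32157 genes tested in one fit of the 36 DI libraries. Genes past this threshold are called changed here, and they make 3.41% of those tested, 2.13% higher and 1.28% lower. The unadjusted p was under 0.05 for 7770 genes, and over all genes tested the log2 fold change had a median of -0.08. DESeq2 called 1411 genes higher and 1300 lower. In 777 of the 1097 called genes the 6 AWA fish and the 6 FM fish did not overlap, 554 of them higher and 223 lower in AWA, while 5.28% of all genes tested had no such overlap. Among the called genes, 110 had a log2 fold change above 2 and 113 one below -2.

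The number of called genes changed when single libraries were left out. Without one AWA library it was 206 without AWA replicate 1, 966 without replicate 2, 326 without replicate 3, 418 without replicate 4, 235 without replicate 5 and 671 without replicate 6. Without one FM library it was 332 without FM replicate 1, 657 without replicate 2, 1997 without replicate 3, 703 without replicate 4, 556 without replicate 5 and 425 without replicate 6. Without ICJ replicate 4, a library of another diet that shares the estimate of the spread, it was 2083. With only FM replicates 1, 2 and 6 it was 6, and with only replicates 3, 4 and 5 it was 68. In the 8 libraries with under 10 CPM of slc15a1, a choice made after the data were seen, it was 15 (1 higher and 14 lower). Each of these 3 fits held only 3 FM fish. The unadjusted edgeR p was under 0.05 for 8663, 4649 and 4205 genes in them, beside 7770 in the main fit. In the 8 libraries, all 684 genes called higher and 410 of the 413 called lower kept their direction. They were called on the same fish, so this is a description.

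The genes with the largest increases included a purine nucleoside phosphorylase-like gene, the decarboxylase gene gadl1 and a mitochondrial ES1 homolog. Those with the largest decreases included a nucleoporin gene model that also holds a metallothionein gene, a chloride channel gene and transporter genes of citrate and monocarboxylates. These 24 genes were the 12 largest changes in each direction among called, annotated genes with no overlap between the fish of the 2 diets. That the diets did not overlap was a condition of the choice and is not a result about them.

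The largest log2 fold change among them was in LOC106565393 (chromosome 12, 59867119 to 59878998 of Ssal_v3.1), a purine nucleoside phosphorylase-like gene of the enzymes that split purine nucleosides. It had 2.09, 18.6 and 98.2 CPM (lowest, median and highest of 6 fish) in AWA and 0.064, 0.429 and 1.31 CPM in FM. The AWA fish spread widely among themselves, and the log2 fold change of 5.95 had a standard error of 1.49 (edgeR, adjusted p = 0.0274). Its call was lost without AWA replicate 1 or 5 or FM replicate 1, 5 or 6, with an adjusted p of up to 0.0774, and it was also lost with the tank as a random block (0.114).

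A steadier increase was found in LOC106612300 (chromosome 9, 107747965 to 107755598), which codes for a mitochondrial ES1 protein homolog. It had 300, 376 and 516 CPM in AWA, against 23.6, 28.9 and 54.3 CPM in FM. Every AWA fish was thus far above every FM fish, with a log2 fold change of 3.61 ± 0.641 (standard error, edgeR adjusted p = 0.00965), and the gene was called with each of the 12 libraries left out in turn. The call was lost with FM replicates 1, 2 and 6 only (3.40, adjusted p = 0.0735), with FM replicates 3, 4 and 5 only (3.79, 0.0609) and in the 8 libraries with under 10 CPM of slc15a1 (3.51, 0.125). LOC106605569 (chromosome 5, 70852930 to 70855681), related to the cell adhesion molecule CEACAM1, had 0.777, 2.90 and 3.19 CPM in AWA and 0, 0.071 and 0.111 CPM in FM. Counts were very low in all FM fish, and the log2 fold change was 5.30 ± 0.978 (edgeR adjusted p = 0.00985).

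Among the other large increases, the serine protease prs27 had 1.55, 2.69 and 7.25 CPM in AWA and 0.056, 0.209 and 0.413 CPM in FM, a log2 fold change of 3.97 (edgeR adjusted p = 0.0193, and 0.0501 without FM replicate 1). Neuroserpin (neus), an inhibitor of serine proteases, changed by 3.03 (0.0216), with 10.4 CPM in AWA and 1.80 CPM in FM as medians. The lipoprotein lipase-like gene LOC106613694, of the enzymes that release fatty acids from lipoproteins, had 44.7, 66.3 and 111 CPM in AWA and 2.70, 9.86 and 12.9 CPM in FM. All AWA fish were above all FM fish in these 3 genes. The interferon gamma receptor chain ifngr1b had 4.42, 9.66 and 17.2 CPM in AWA and 0.363, 1.05 and 1.31 CPM in FM, a log2 fold change of 3.36 ± 0.824 (edgeR adjusted p = 0.0254), and its call was lost without AWA replicate 1, 4 or 5 or FM replicate 1 or 6 (up to 0.0556). The other large increases were xylosyltransferase 1-like LOC106606223 (log2 fold change 5.25), which starts the sugar chains of proteoglycans, calpain small subunit-like LOC106580760 (3.39) and the Ras and Rab interactor 2-like gene LOC106577859 (3.34), with medians of 1.82, 3.14 and 8.14 CPM in AWA and of 0, 0.283 and 0.828 CPM in FM. Their edgeR adjusted p was 0.0266, 0.0338 and 0.0135. Over the alternative settings the calls were kept in 12, 11 and 19 and lost in 8, 11 and 3.

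**Figure D1:**
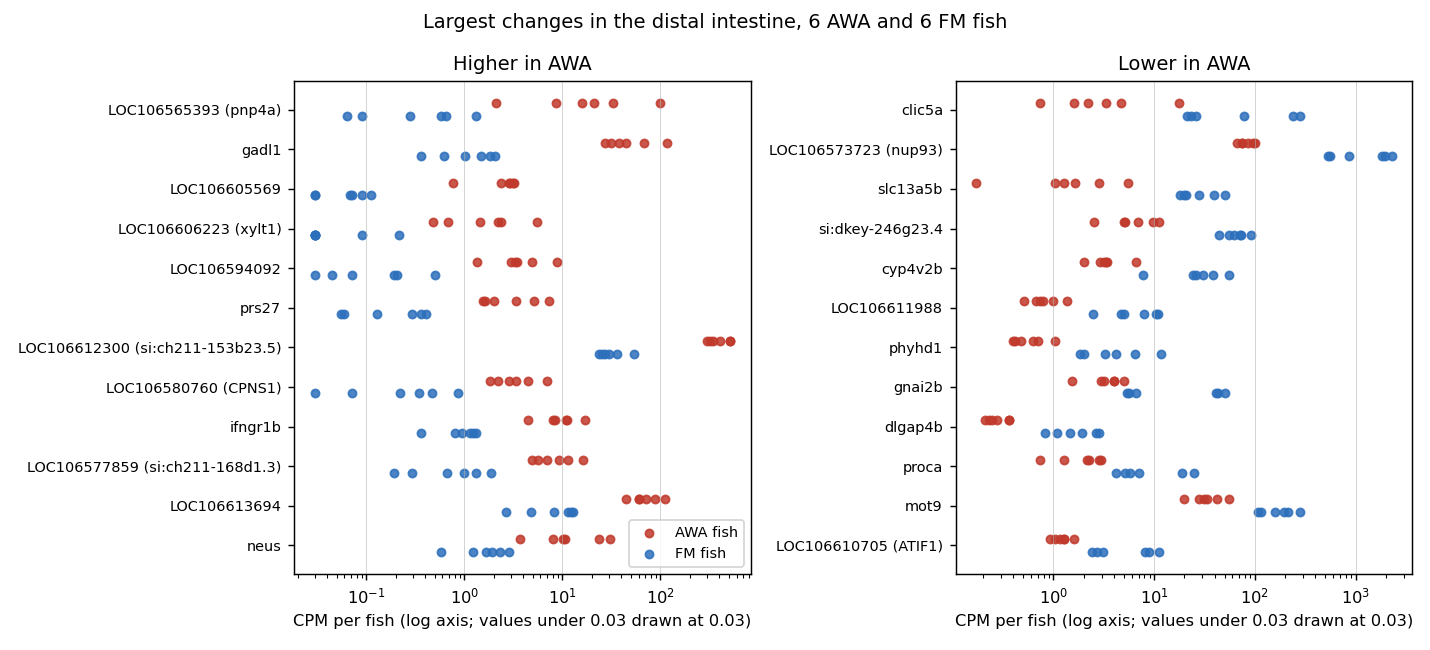
CPM on a log axis in each of 6 AWA fish (red) and 6 FM fish (blue) for the 12 largest increases (left) and the 12 largest decreases (right) among called genes whose diets did not overlap. In LOC106612300 the AWA fish lie between 300 and 516 CPM and the FM fish between 23.6 and 54.3 CPM, while in clic5a both diets spread widely, from 0.732 to 17.8 CPM in AWA and from 21.0 to 279 CPM in FM.

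The decrease with the highest levels was in LOC106573723 (chromosome 16, 31777023 to 31820746, plus strand), annotated as nucleoporin 93, a scaffold protein of the nuclear pore. It had 66.3, 80.7 and 101 CPM in AWA and 538, 1346 and 2286 CPM in FM. Every FM fish was far above every AWA fish, and the log2 fold change was -4.01 ± 0.706 (edgeR adjusted p = 0.00965), called with each of the 12 libraries left out in turn. It was -3.75 with FM replicates 1, 2 and 6 only (0.0565), -4.26 with FM replicates 3, 4 and 5 only (0.0246) and -3.88 in the 8 libraries with under 10 CPM of slc15a1 (0.0751). The RefSeq gene of metallothionein A (31783555 to 31784146), a small metal-binding protein, lies inside this gene model and inside that of bbs2, on the minus strand, which had a log2 fold change of -0.05. Fragments were counted by strand, and the strand of the metallothionein gene is not given in the reference table used here, so whether its reads are part of these values was not tested.

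A second gene model that holds a metallothionein gene was looked up after its values were seen. The RefSeq gene of metallothionein B lies on chromosome 10 (87145397 to 87146407) inside LOC100195319, which had 143 to 276 CPM in AWA and 198 to 1083 CPM in FM. The fish overlapped, and the log2 fold change was -1.61 ± 0.399 (edgeR adjusted p = 0.0267). Another one, mt on chromosome 6, lies inside ppp1caa, a catalytic subunit of a protein phosphatase, which was not called (log2 fold change 0.23).

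Several of the decreases were in genes that carry solutes across membranes. The chloride intracellular channel gene clic5a (chromosome 9, 25438535 to 25446724) had 0.732, 2.77 and 17.8 CPM in AWA and 21.0, 51.9 and 279 CPM in FM. The 3 highest FM fish were those with 10 CPM or more of slc15a1 (77.9, 238 and 279 CPM), and so was the highest AWA fish. The log2 fold change was -4.46 ± 1.24 (edgeR adjusted p = 0.041), and -3.24 in the 8 libraries with under 10 CPM of slc15a1 (adjusted p = 0.298). The gene was called in 3 of 12 fits with one library left out, with an adjusted p of up to 0.0959 without AWA replicate 1.

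The citrate transporter gene slc13a5b had 0.171, 1.44 and 5.44 CPM in AWA and 17.9, 24.3 and 50.01 CPM in FM. Its log2 fold change was -3.84 in all 12 libraries (edgeR adjusted p = 0.0421) and -3.83 in the 8 with under 10 CPM of slc15a1 (0.22). The model overlaps 2 other gene models on either strand, and the call was lost in 10 of 12 fits with one library left out, with an adjusted p of up to 0.101 without AWA replicate 1. The monocarboxylate transporter genes si:dkey-246g23.4 and mot9 fell by 3.29 and 2.36 on the log2 scale. In si:dkey-246g23.4 the fish had 2.51, 6.01 and 11.2 CPM in AWA and 43.6, 66.6 and 92.0 CPM in FM, and in mot9 they had 19.9, 32.5 and 54.8 CPM in AWA and 108, 178 and 280 CPM in FM. The call of mot9 held with each of the 12 libraries left out (edgeR adjusted p = 0.0165 in all), while that of si:dkey-246g23.4 (0.0301 in all) was lost without AWA replicate 1, 3, 4, 5 or 6 or FM replicate 1 or 6, at up to 0.0769.

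Among the other large decreases, phyhd1, a dioxygenase of the phytanoyl-CoA hydroxylase type, had 0.396, 0.555 and 1.03 CPM in AWA and 1.81, 3.71 and 11.7 CPM in FM. Its log2 fold change was -3.0 ± 0.518 (edgeR adjusted p = 0.00947), and it was among the few genes still called in the 8 libraries with under 10 CPM of slc15a1 (-3.57, adjusted p = 0.0189). The anticoagulant protein C gene proca was the other named gene of which this was true, with -2.43 (0.0134) in all libraries and -3.08 (0.0253) in the 8. The remaining decreases were cyp4v2b (-3.09), a fatty acid hydroxylase of the cytochrome P450 family, LOC106611988 (-3.02), a LONRF3-like RING finger gene, gnai2b (-2.88), an alpha subunit of inhibitory G proteins whose call was lost in 11 of 12 fits with one library left out (up to 0.101 without AWA replicate 1), dlgap4b (-2.65), a scaffold gene, and LOC106610705 (-2.32), an inhibitor of the mitochondrial ATP synthase. The call of cyp4v2b (edgeR adjusted p = 0.025 in all libraries) was lost without AWA replicate 1, 3, 4 or 5, at up to 0.0635. The gene models of phyhd1 and mot9 overlap no other model, while that of gnai2b overlaps 2 and those of cyp4v2b, dlgap4b and proca overlap 1 each, on either strand.

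Of the 47 called genes that are named here by rule, 15 were called with each of the 12 libraries left out in turn, 16 in 6 to 11 of these fits and 16 in under 6. No direction changed, which is a description, since the genes were called on the same fish. Calls were lost for 29 of the 47 without AWA replicate 1, 29 without AWA replicate 5, 25 without FM replicate 1, 22 without AWA replicate 3 and 22 without FM replicate 6. They were lost for 19 without AWA replicate 4, 17 without FM replicate 5, 13 without FM replicate 4, 12 without FM replicate 2, 10 without AWA replicate 6, 5 without AWA replicate 2 and 4 without FM replicate 3. The highest adjusted p in these fits was 0.13. With FM replicates 1, 2 and 6 only the calls of 46 of the 47 were lost (all but phyhd1), with FM replicates 3, 4 and 5 only those of 44 (all but LOC106573723, dlgap4b and LOC106610705), and in the 8 libraries with under 10 CPM of slc15a1 those of 45.

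Taurine synthesis and uptake were covered in part by a list of sulfur amino acid genes, of which 10 of 18 entries were matched to a gene. Cysteine sulfinic acid decarboxylase (csad), an enzyme of taurine synthesis, was not among the matched genes and was not examined. Of 12 tested members of the list of taurine and sulfur amino acid metabolism, 3 were higher, 0 lower and 9 not called, with a median log2 fold change of 0.40 (all genes: -0.08). Of all genes tested, 2.13% were higher and 1.28% lower. The members of this and the other lists were chosen with earlier results of these data known, so their counts and medians are descriptions. Glutamate decarboxylase like 1 (gadl1, chromosome 2, 1926210 to 1952275), an enzyme that in mammals decarboxylates aspartate and cysteine sulfinic acid, had 27.3, 41.1 and 118 CPM in AWA and 0.36, 1.24 and 2.05 CPM in FM. Every AWA fish was far above every FM fish. The log2 fold change was 5.48 ± 0.986 (edgeR adjusted p = 0.00965), the gene was called with each of the 12 libraries left out in turn, and its log2 fold change was 6.37 in the 8 libraries with under 10 CPM of slc15a1 (adjusted p = 0.0915). With FM replicates 1, 2 and 6 only it was 5.57 (0.0735), and with FM replicates 3, 4 and 5 only 5.35 (0.0787). The GADL1-like gene LOC106594092 on chromosome 5 (90829689 to 90854115) had 1.34, 3.40 and 8.79 CPM in AWA and 0, 0.133 and 0.50 CPM in FM, a log2 fold change of 4.56 ± 1.15 (0.0281). Its call was lost without AWA replicate 5 or FM replicate 2, 4, 5 or 6, with an adjusted p of up to 0.0634, and it was also lost with the tank as a random block (0.0689).

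Both gene copies of the taurine transporter were higher. The copy slc6a6 (chromosome 13, 20807936 to 20842137) had 360, 482 and 831 CPM in AWA and 113, 135 and 231 CPM in FM, a log2 fold change of 1.88 ± 0.35 (edgeR adjusted p = 0.0101). The copy slc6a6b (chromosome 22, 54184811 to 54223610) had 299, 378 and 423 CPM in AWA and 81.4, 107 and 165 CPM in FM, a log2 fold change of 1.68 ± 0.293 (0.00957). Neither copy overlapped between the diets, as in 777 of the 1097 called genes, and both were called with each of the 12 libraries left out in turn. With FM replicates 1, 2 and 6 only the log2 fold changes were 2.05 (adjusted p = 0.0666) for slc6a6 and 1.89 (0.0516) for slc6a6b, with FM replicates 3, 4 and 5 only 1.69 (0.0956) and 1.45 (0.0787), and in the 8 libraries with under 10 CPM of slc15a1 1.68 (0.153) and 1.64 (0.0915). The gene of the first enzyme of the pathway, cysteine dioxygenase (cdo1), was not called, with 37.2, 52.2 and 102 CPM in AWA and 34.9, 51.5 and 89.2 CPM in FM. Among the other members, glycine N-methyltransferase (gnmt) had a log2 fold change of 0.98 and betaine homocysteine methyltransferase (bhmt) one of -1.41, and neither was called.

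The medians of the other soybean meal diets lay between those of AWA and FM for these 3 genes. The median of gadl1 was 21.6 CPM in IWA, 28.2 in ICJ, 21.1 in ACJ and 10.1 in SBM. Single fish ranged widely, from 3.23 to 137 CPM in ICJ and from 0.88 to 70.3 CPM in ACJ. For slc6a6 the medians were 418 CPM in IWA and 353 CPM in SBM, and for slc6a6b they were 276 CPM in IWA and 197 CPM in SBM. The log2 fold change of gadl1 was 1.68 ± 0.815 in AWA|SBM and 1.03 ± 0.801 in AWA|IWA, and neither was called (edgeR adjusted p = 0.882 and 1).

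**Figure D2:**
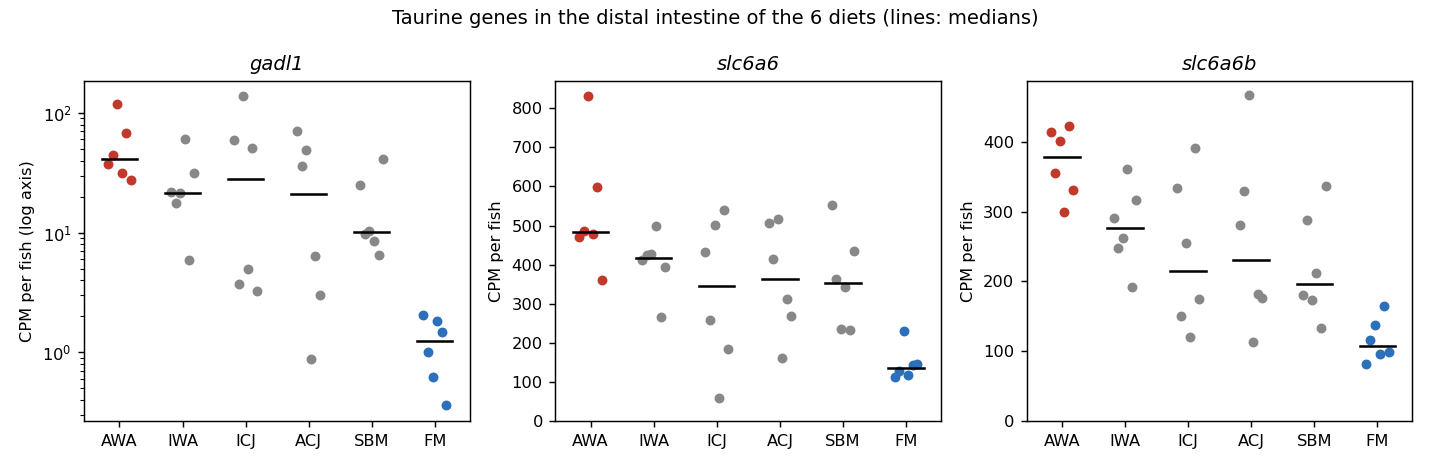
CPM of gadl1 (log axis) and of the taurine transporter genes slc6a6 and slc6a6b (linear axes) in the distal intestine, with 1 point per fish, 6 fish per diet and lines at the medians. In all 3 genes the AWA fish (red) lie above the FM fish (blue) without overlap, for example 299 to 423 CPM against 81.4 to 165 CPM for slc6a6b. The fish of the other 4 diets (grey) overlap with AWA. Single fish of SBM, ICJ and ACJ also lie within the FM range, for example 133, 120 and 113 CPM for slc6a6b.

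Ion and water transport genes set the uptake of salt and water in the gut of seawater fish. Of 13 tested members of that list, 0 were higher and 3 lower, 11 had a negative log2 fold change, and the median was -2.28 (all genes: -0.08). Of all genes tested, 2.13% were higher and 1.28% lower. The list was chosen with earlier results of these data known, and clic5a and slc13a5b are among the largest decreases above. The count and the median are thus descriptions. The 3 called were clic5a, slc13a5b and aqp10b, a water and glycerol channel gene with 4.24, 5.85 and 8.61 CPM in AWA and 15.1, 26.2 and 48.8 CPM in FM (log2 fold change -2.28 ± 0.544, edgeR adjusted p = 0.0219). The fish did not overlap in aqp10b. The call was lost without AWA replicate 1, 3 or 5 (up to 0.0568), and the log2 fold change was -2.27 in the 8 libraries with under 10 CPM of slc15a1. In aqp8, another water channel gene, chosen after its values were seen, the fish did not overlap either, with 2.09 to 12.3 CPM in AWA and 17.2 to 105 CPM in FM, but the gene was not called (log2 fold change -3.63 ± 1.17, edgeR adjusted p = 0.0681). The list's median stayed at -2.27 in the 8 libraries, where 0 members were called.

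Among the genes of brush border digestion and nutrient transport, 0 of 19 were higher and 2 lower, with a median of -0.79. The shares over all genes tested were 2.13% higher and 1.28% lower. The sulfate transporter slc13a1 had at most 0.299 CPM in AWA and up to 19.4 CPM in FM, and the 3 highest fish were the FM fish with 10 CPM or more of slc15a1 (2.16, 10.5 and 19.4 CPM). Its log2 fold change was -5.87 in all libraries (edgeR adjusted p = 0.031), -3.56 with the tank as a random block (0.0985) and -1.31 in the 8 libraries (0.771). The amino acid exchanger slc7a8a had 67.1, 91.1 and 123 CPM in AWA and 129, 189 and 278 CPM in FM, a log2 fold change of -1.02 (0.0481), called in 3 of 12 fits with one library left out (up to 0.102 without AWA replicate 1). Sucrase-isomaltase (si), with 39.9 to 100 CPM in AWA and 27.6 to 1106 CPM in FM, and slc15a1 itself were not called. The list's median was -0.18 in the 8 libraries.

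Of the list of lipid absorption and lipoproteins, all 11 genes tested had a negative log2 fold change and none was called (median -1.06, and -0.81 in the 8 libraries). Apolipoprotein A-I (apoa1) had 38.9, 148 and 3853 CPM in AWA and 154, 3936 and 11911 CPM in FM. The 4 highest of the 12 libraries were the 4 with 10 CPM or more of slc15a1, and the part of gut position in these values was not tested.

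**Figure D3:**
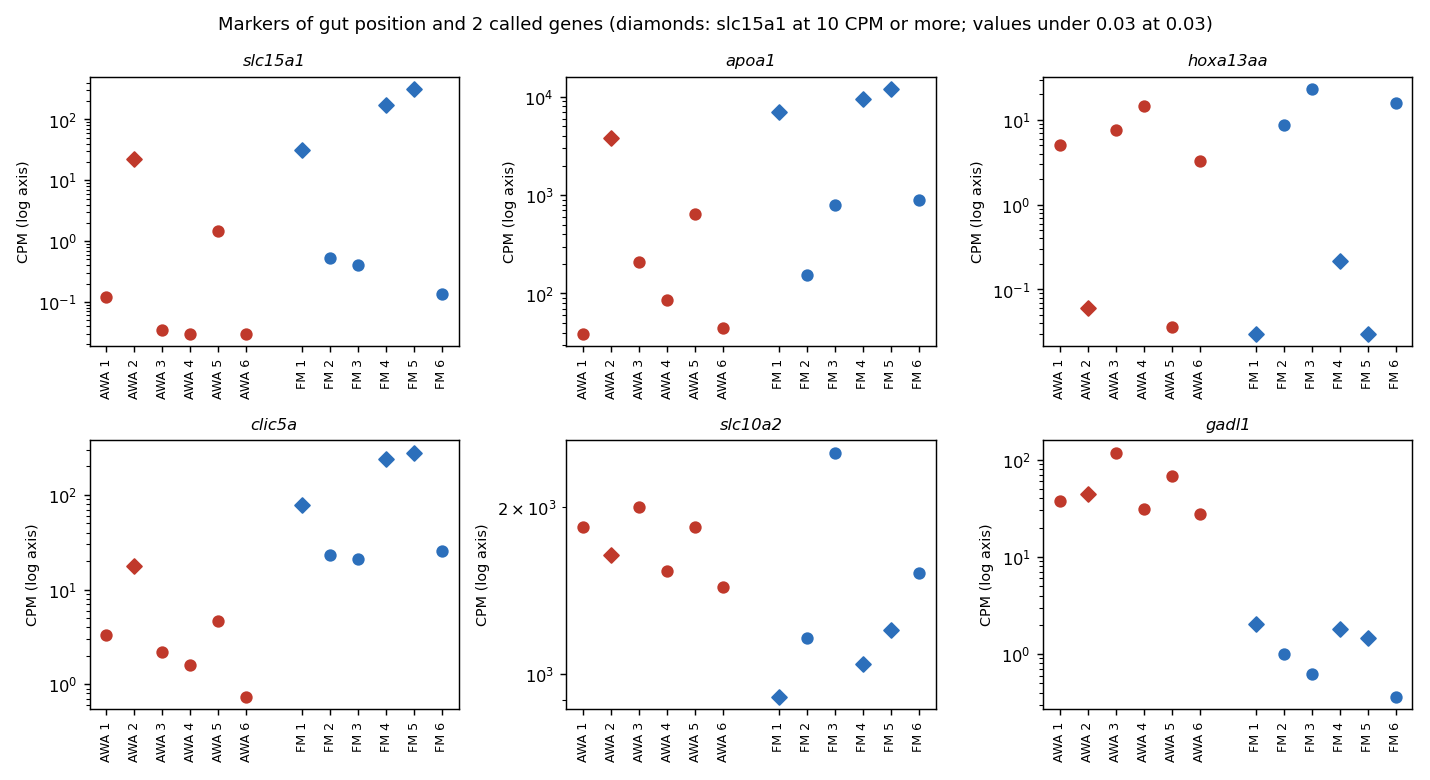
CPM per fish on log axes for 2 genes of the proximal gut (slc15a1 and apoa1), 2 of the distal gut (hoxa13aa and slc10a2) and 2 called genes (clic5a and gadl1), AWA in red and FM in blue, with diamonds for the 4 libraries with 10 CPM or more of slc15a1. The diamonds are the highest points of their diet in apoa1 and clic5a. In gadl1 the fish lie between 27.3 and 118 CPM in AWA and between 0.36 and 2.05 CPM in FM. That the diets do not overlap in clic5a and gadl1 was a condition of the choice of these genes. Without the diamonds gadl1 was not called (edgeR adjusted p = 0.0915).

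Of the 26 genes of endocytosis and lysosomes, in which the distal enterocyte is rich, 0 were higher and 1 was lower. The shares over all genes tested were 2.13% and 1.28%. The median of the list was -0.01, and -0.35 in the 8 libraries with under 10 CPM of slc15a1. The list summed to 27543 to 44094.1 CPM in AWA. In FM it summed to 14415.3 to 31185.5 CPM in the fish with 10 CPM or more of slc15a1. It summed to 38752.7 to 64260.5 CPM in the other FM fish. The part of gut position in these values was not tested. The called gene was tfeb, a transcription factor of lysosome genes, with 7.82, 19.5 and 33.9 CPM in AWA and 29.9, 90.8 and 191 CPM in FM (log2 fold change -2.35 ± 0.631, edgeR adjusted p = 0.0367). Only the lowest FM fish lay within the range of AWA. The call was held in 4 of 12 fits with one library left out, and was lost at up to 0.0898 without AWA replicate 1. The vitamin B12 and protein receptor cubilin (cubn) had 2078 to 3664 CPM in AWA and 627 to 3524 CPM in FM, and the lysosomal cholesterol transporter npc1 had 160 to 222 CPM in AWA and 68.9 to 115 CPM in FM. Both were added outside the rule for naming genes, npc1 after its values were seen. The gene cubn had been planned as a marker of the distal gut, with earlier results of these data known. The fish did not overlap in npc1, but its adjusted p was 0.0513 (edgeR, log2 fold change 1.12).

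Chaperones and sensors of the endoplasmic reticulum (ER) fold secreted and membrane proteins and report their misfolding. Of 20 tested members of that list, 6 were higher and 0 lower, 17 had a positive log2 fold change, and the median was 0.52 (all genes: -0.08). Of all genes tested, 2.13% were higher and 1.28% lower. The ER chaperone hsp90b1 had 242, 434 and 643 CPM in AWA and 84.5, 127 and 220 CPM in FM, a log2 fold change of 1.68 ± 0.351 (edgeR adjusted p = 0.0154). The chaperone partner sdf2l1 had 70.5, 94.3 and 151 CPM in AWA and 29.2, 42.3 and 59.5 CPM in FM (1.27 ± 0.302, adjusted p = 0.0216). The stress sensor atf6, which activates chaperone genes, had 88.5, 96.4 and 112 CPM in AWA and 62.3, 68.0 and 71.9 CPM in FM (0.55 ± 0.115, adjusted p = 0.0147). In all 3 genes every AWA fish was above every FM fish. This was so in 554 of the 684 genes called higher, and 5.28% of all genes tested had no overlap in either direction.

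The other 3 called genes of the list were sel1l (log2 fold change 0.71), an adaptor of the pathway that degrades misfolded proteins, and canx (1.00) and manf (1.32), a lectin chaperone and an ER stress protein, which the rule for naming genes left out and which were added after their values were seen. The calls of hsp90b1 and atf6 held with each of the 12 libraries left out in turn. The call of sdf2l1 was lost without AWA replicate 1, FM replicate 1 or FM replicate 6 (up to 0.0708), and that of sel1l in 6 of 12 fits (up to 0.0813 without AWA replicate 1). The sensors ern1 and eif2ak3 and the factor xbp1 were not called, with log2 fold changes of -0.03, 0.37 and -0.01. The median of the list was 0.39 in the 8 libraries with under 10 CPM of slc15a1, where 0 members were called.

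In the secretory pathway after the ER, 1 of 10 genes of vesicle coats was higher, the coatomer subunit copa with 170, 203 and 233 CPM in AWA and 118, 130 and 145 CPM in FM (log2 fold change 0.63 ± 0.16, edgeR adjusted p = 0.0299). The call was lost in 6 of 12 fits with one library left out (up to 0.0827 without AWA replicate 1). Of 23 genes of ribosome biogenesis, 2 were higher and 0 lower, while 2.13% of all genes tested were higher and 1.28% lower. All 23 had a positive log2 fold change, with a median of 0.50, and 0.47 in the 8 libraries. The called genes were polr1b, a subunit of RNA polymerase I, and ncl, the nucleolar protein nucleolin. The first had 13.0, 14.3 and 16.4 CPM in AWA and 7.01, 8.15 and 11.5 CPM in FM (0.73 ± 0.18, adjusted p = 0.0262), and its call was lost without AWA replicate 1 or 5 or FM replicate 1 or 6 (up to 0.0678). The second had 475, 575 and 682 CPM in AWA and 339, 396 and 440 CPM in FM (0.56 ± 0.162, adjusted p = 0.0482), and its call was lost with any one of the 12 libraries left out (up to 0.121 without AWA replicate 5).

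The amino acid transporter s38a2, which carries neutral amino acids, had 78.2, 89.5 and 155 CPM in AWA and 18.1, 25.4 and 41.2 CPM in FM. The fish did not overlap, the log2 fold change was 1.94 ± 0.397 (edgeR adjusted p = 0.0134), and the call held with each of the 12 libraries left out. It was the only called gene of the 13 tested of the list of amino acid response and serine synthesis, whose median was -0.19, and atf4 and asns, the regulator and a target of that response, had log2 fold changes of 0.24 and 0.46 and were not called. Glutathione reductase (gsr) was the only called gene among 12 of oxidative stress defence, with 124, 150 and 165 CPM in AWA and 65, 81.8 and 106 CPM in FM (0.82 ± 0.21, adjusted p = 0.0301, called in 4 of 12 fits with one library left out and up to 0.0749 without AWA replicate 3). The early response genes atf3 (1.10, adjusted p = 0.0322) and ier2 (0.95, adjusted p = 0.048) were higher among 9 tested, and vimentin (vim), an intermediate filament gene of mesenchymal cells, had 30.9, 56.9 and 129 CPM in AWA and 11.1, 16 and 28.3 CPM in FM (1.93, adjusted p = 0.0359). It was the only called gene of 8 tested fibroblast, smooth muscle and wound markers, of which 5 had a negative log2 fold change (median -0.27). Of all genes tested, 3.41% were called. The calls of atf3 and vim were lost in 8 of 12 fits with one library left out and that of ier2 in 10, at up to 0.0937 without AWA replicate 5, 0.0995 without AWA replicate 3 and 0.13 without AWA replicate 1.

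In the lists of cholesterol synthesis (11 genes), bile acid handling (5), fatty acid oxidation (15), the respiratory chain and citrate cycle (12), detoxification (7), tight junctions (18), mucus (4) and posterior Hox genes (25), no gene was called. The median of the posterior Hox genes was 0.26, and -0.28 in the 8 libraries with under 10 CPM of slc15a1. In all libraries the medians of these lists ranged from -0.29 in detoxification to 0.30 in cholesterol synthesis. Matching by symbol found only part of the planned entries, for example 3 of 16 for mucus, 6 of 15 for detoxification and 9 of 21 for tight junctions. Of the 28 tight junction genes matched, 14 had under 1 CPM on average. Planned members that were not matched were not examined. Of all genes tested, 3.41% were called. In the cell cycle list 16 of 19 genes had a positive log2 fold change (median 0.20), and the only one called was lower, thymidylate synthase (tyms), with 18.8 to 22.8 CPM in AWA and 17.4 to 43.3 CPM in FM (log2 fold change -0.61, edgeR adjusted p = 0.0398), lost in 10 of 12 fits with one library left out (up to 0.0997 without FM replicate 5).

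**Figure D4:**
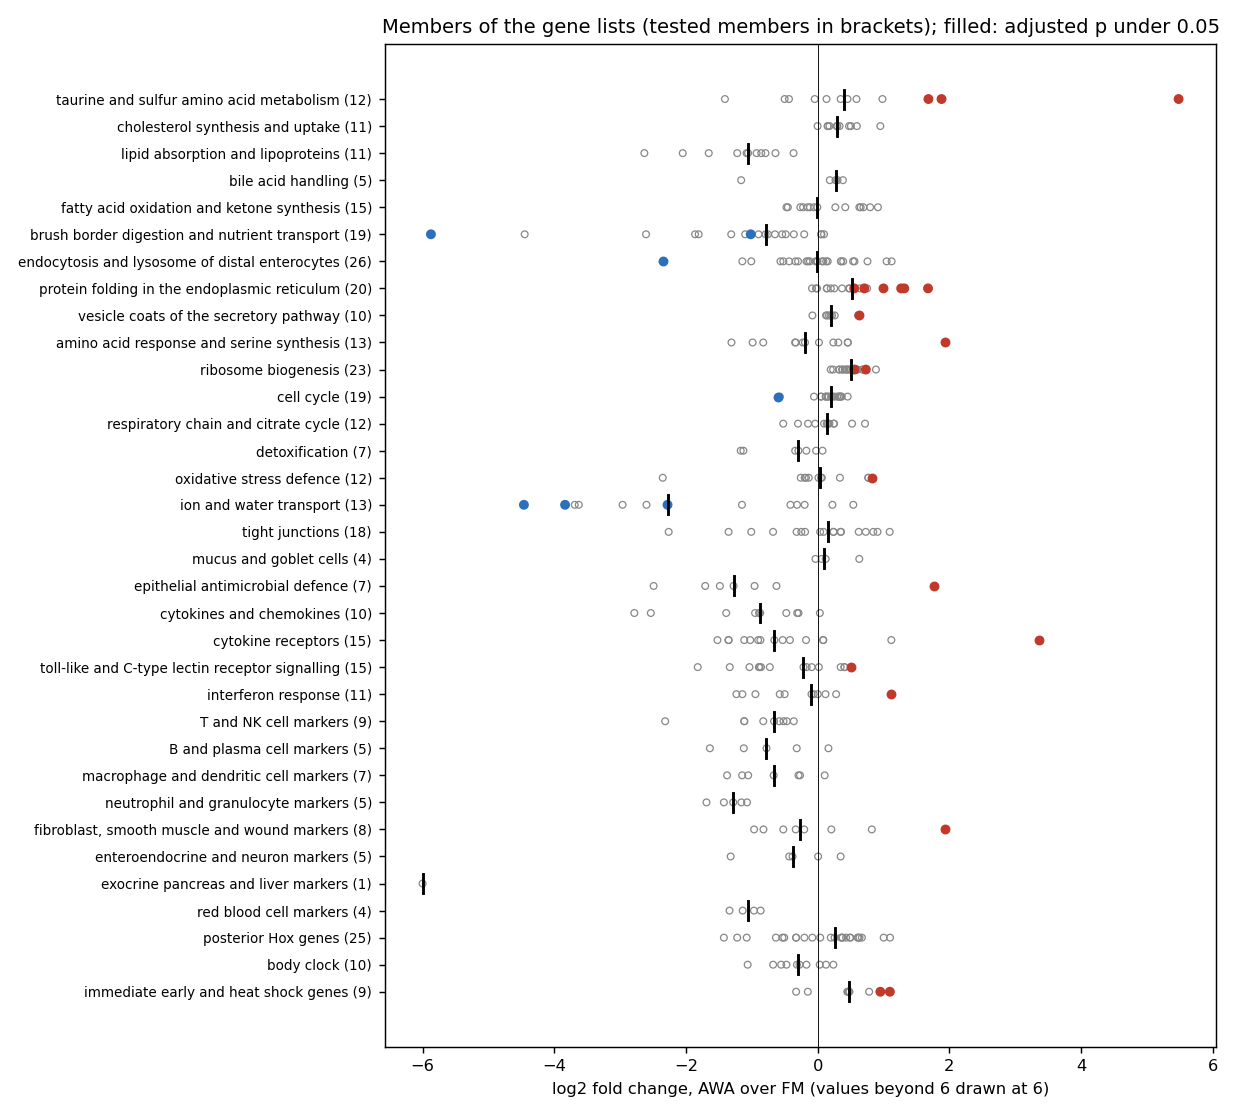
Log2 fold changes (AWA over FM) of the tested members of the 34 gene lists, 1 point per gene, with filled points for genes at an edgeR adjusted p under 0.05 (red higher, blue lower in AWA) and black bars at the median of each list. The list of ER protein folding has 6 filled points, all to the right of 0, and that of ion and water transport has its median at -2.28.

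In the 5 lists of cytokines, their receptors, pattern recognition, interferon and epithelial defence, 4 of 58 genes were called (6.9%, against 3.41% of all genes), all of them higher, and 43 of the 58 had a negative log2 fold change. Of 15 tested cytokine receptors, 1 was higher, ifngr1b, and 0 were lower, and the median was -0.66. Of 10 cytokines and chemokines none was called and 9 had a negative log2 fold change (median -0.88), among them the matrix protease mmp9 with 15.8, 21.0 and 66.5 CPM in AWA and 24.5, 78.3 and 192 CPM in FM (log2 fold change -1.39, edgeR adjusted p = 0.12). Of 15 genes of toll-like and C-type lectin receptor signaling, 1 was higher and 0 were lower. It was malt1, a protease that acts downstream of C-type lectin receptors, with 46.7, 48.5 and 49.0 CPM in AWA and 27.9, 33.3 and 42.7 CPM in FM (0.51 ± 0.12, adjusted p = 0.0207). The call was lost in 6 of 12 fits with one library left out (up to 0.0631 without AWA replicate 1). In the interferon list 1 of 11 was higher, the factor irf7 with 2.82, 4.15 and 5.85 CPM in AWA and 0.944, 2.03 and 2.54 CPM in FM (1.12, adjusted p = 0.0312, lost in 8 of 12 fits and up to 0.091 without AWA replicate 3). Of the 11, 7 had a negative log2 fold change. The median was -0.09, and -0.25 in the 8 libraries with under 10 CPM of slc15a1. The list summed to 305 to 431 CPM in AWA and to 357 to 614 CPM in FM (exact permutation p = 0.026, not adjusted for the number of lists). Among epithelial defence genes 1 of 7 was higher, the oxidase gene nox1 (1.76, adjusted p = 0.0482, called in 2 of 12 fits and up to 0.117 without FM replicate 1).

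Of the immune genes that the study names for this diet, the antigen CD83 gene LOC106605367 (chromosome 5, 60889869 to 60893309), a marker of activated dendritic cells, was called lower. It had 4.22, 5.48 and 8.16 CPM in AWA and 8.20, 12.3 and 16.7 CPM in FM. The fish did not overlap, if only just, and the log2 fold change was -1.04 ± 0.283 (edgeR adjusted p = 0.0387). The call was lost in 8 of 12 fits with one library left out, at up to 0.0962 without AWA replicate 5. The tumor necrosis factor genes tnf-alpha-1, tnf-alpha-2 and LOC100136509 had log2 fold changes of -1.69, -1.85 and -1.12, and the interleukin 12 subunit genes il12b2, LOC106612126 and LOC106567437 had -1.63, -1.90 and -0.10. The receptor gene tlr7 had -0.17. None of these 7 was called (edgeR adjusted p between 0.128 and 0.87), and il12a and ifng, with at most 0.0593 and 0.356 CPM in any of the 12 fish, were below the filter on low counts. Since the study chose these genes on the same fish, their direction is not independent evidence.

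In the lists of immune cell markers values were mostly lower in AWA, and no list member was called. The CD83 gene above, which was called lower, was not matched to these lists. The 9 tested markers of T and NK cells all had a negative log2 fold change (median -0.66), and the 10 members of that list summed to 40.8, 58.4 and 99.1 CPM in AWA and to 63.7, 85.2 and 162 CPM in FM. The T cell receptor partner cd3e, a defining marker, had 15.2, 23.1 and 37.5 CPM in AWA and 25.6, 32.2 and 48.8 CPM in FM. Of 5 B cell markers 4 were negative (median -0.78), and their sum was 59.2 to 105 CPM in AWA and 69.1 to 167 CPM in FM. The 5 markers of neutrophils and granulocytes were all negative (median -1.28) and summed to 31.3, 44.4 and 148 CPM in AWA and to 39.5, 156 and 321 CPM in FM. Of 7 tested macrophage and dendritic cell markers 6 were negative (median -0.67), among them mpeg1.1, a pore-forming protein of macrophages, with 57.5, 75.3 and 159 CPM in AWA and 76.2, 274 and 399 CPM in FM. The ranges of the 2 diets overlapped in the sums of all these lists. By the exact permutation test of the difference of means, p was 0.039 for T and NK cells and 0.0476 for neutrophils and granulocytes. By the same test it was 0.102 for B cells and 0.262 for macrophages and dendritic cells. These p were not adjusted for the number of lists. Sums of some other lists, higher in AWA by their medians, had a smaller p by the same exact permutation test. It was 0.00216 for ribosome biogenesis, 0.00433 for immediate early and heat shock genes and 0.00866 for ER protein folding. Among sums lower in AWA by their medians, the same exact permutation test gave p = 0.00866 for body clock genes. It gave 0.0195 for ion and water transport and 0.026 for the interferon list. Red cell markers, which come with blood, summed to 5.77 to 54.3 CPM in AWA and to 11.9 to 138 CPM in FM, and both macrophage gene copies of marco were at or near 0 in all 12 libraries. The part of these cells in the other results was not tested. In bulk tissue, fewer cells of a type and less RNA per cell cannot be told apart. The pancreatic enzyme gene cpb1 had 111 CPM in FM replicate 1, 6.62 CPM in FM replicate 5 and at most 0.171 CPM in the other 10 libraries.

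AWA|SBM compared 2 diets with the same share of soybean meal, with and without yeast. The AWA diet also held less fishmeal, wheat gluten and potato starch than the SBM diet, so the yeast cannot be told apart from these. AWA|IWA compared yeast that was autolyzed before spray-drying with yeast inactivated by spray-drying alone. By edgeR, 0 genes (0% of 32157) were called for AWA|SBM and 0 (0%) for AWA|IWA. The unadjusted p was under 0.05 for 1669 genes in AWA|SBM and for 936 in AWA|IWA, and DESeq2 called 68 (10 higher, 58 lower) and 4. The shallowest IWA library had a total count of 6976621, the lowest of the 36 DI libraries. A gene that misses the threshold is not shown to be alike in the 2 diets. The interval of the difference is wide, with a standard error of 0.815 on the log2 scale for gadl1 in AWA|SBM.

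In the 24 genes with the largest changes in AWA|FM, the SBM median lay between the AWA and FM medians in 22 and the IWA median in 19. These genes were chosen for the distance between AWA and FM, so the order is a description. With the same FM fish, IWA|FM called 99 genes and SBM|FM 6, and 6 and 1 of the 24. LOC106573723 was called in both, with log2 fold changes of -3.95 (edgeR adjusted p = 0.0242) and -3.90 (0.0297) beside -4.01 in AWA|FM, and medians of 62.5 CPM in IWA and 90.2 CPM in SBM. The low level of this gene was thus common to the fish fed AWA, IWA and SBM. For slc13a5b the values were -3.84 in AWA|FM, -2.14 in IWA|FM and -0.98 in SBM|FM, with medians of 1.44 CPM in AWA, 6.17 CPM in IWA, 12.8 CPM in SBM and 24.3 CPM in FM. For LOC106612300 the medians were 376 CPM in AWA, 262 CPM in IWA, 94.4 CPM in SBM and 28.9 CPM in FM, and AWA|SBM was 1.41 on the log2 scale without a call.

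In the spleen of the same fish, 0 of 32144 genes (0%) were called for AWA|FM by edgeR, and 2958 had an unadjusted p under 0.05. The response differed between the tissues in 1054 of 32775 genes (3.22%), 634 with a higher and 420 with a lower log2 fold change in the DI, in a test of the diet by tissue term in the 24 libraries with the fish as a block. DESeq2 called 2837. The 1054 became 272 without AWA replicate 1, 949 without replicate 2, 295 without replicate 3, 368 without replicate 4, 286 without replicate 5 and 945 without replicate 6. It was 370 without FM replicate 1, 761 without replicate 2, 586 without replicate 4, 527 without replicate 5 and 502 without replicate 6, and 3422 without FM replicate 3. In the 8 fish with under 10 CPM of slc15a1 it was 16.

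The taurine genes were among those that differed. In the spleen gadl1 had medians of 3.19 CPM in AWA and 2.34 CPM in FM, and the DI minus spleen difference of the log2 fold changes was 5.20 (edgeR adjusted p = 4.75e-05). For LOC106612300 the difference was 3.63 (4.75e-05), for slc6a6 1.99 (0.00343) and for slc6a6b 1.44 (0.00593). LOC106573723, with a log2 fold change of -0.24 in the spleen, differed by -3.60 (0.00202), and slc13a5b by -4.54 (0.0038). For hsp90b1, atf6, polr1b and ncl the difference was positive, at 1.29, 0.52, 0.80 and 0.73, and was not called (adjusted p between 0.0556 and 0.117).

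**Figure D5:**
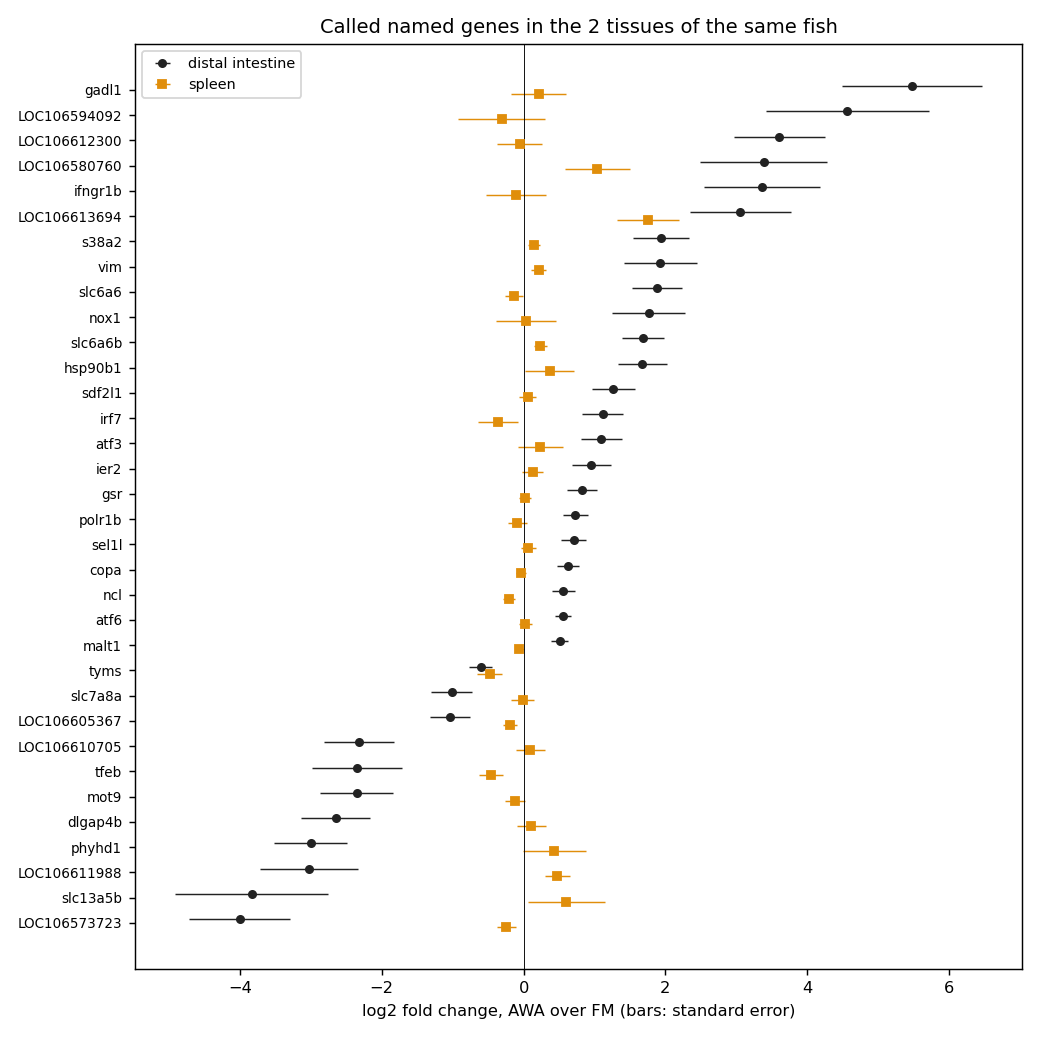
Log2 fold changes of AWA over FM, with standard errors, for the called named genes tested in both tissues of the same 12 fish, distal intestine in black and spleen in orange. In the spleen gadl1 lies at 0.21 and LOC106573723 at -0.24, against 5.48 and -4.01 in the distal intestine.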

How the data were processed

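RNA was extracted from the distal intestine and spleen of 6 fish per diet, made into TruSeq stranded mRNA libraries and sequenced in pairs of reads. The deposited values are counts, whole numbers of fragments per Ensembl gene that the authors made with featureCounts, not normalized. The submitters' notes name Trim Galore, STAR, RSEM and featureCounts 1.4.6, and the headers of the count files name featureCounts 1.5.1 with strand-specific counting on the Ssal_v3.1 gene models. Duplicates were marked before counting, and whether they were counted is not given in the sources used here.

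Counts were tested in R 4.3.3 with edgeR 4.0.16 (filterByExpr, TMM scaling, robust quasi-likelihood fit of diet over 36 DI libraries, common biological coefficient of variation 0.463, Benjamini-Hochberg adjustment). Diet by tissue was tested in 24 libraries with the fish as a block. DESeq2 1.42.0, limma 3.58.1 (a tank block with voom), RLE size factors, no filter on low counts, a log2 fold change limit of 2, a replicate block, sums over tanks and fits without single libraries were alternatives. Tanks were inferred from fish numbers. Fish that share a tank are not independent, so p-values measure the spread between fish. The code was tested on simulated data.

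Of 69389 genes in the files, 34983 were paired with a RefSeq gene of Ssal_v3.1 whose span and theirs overlapped by at least 50% of both, and 8971 carried a gene symbol beyond a LOC number. For 126 another RefSeq gene was a candidate too. Names of LOC genes came from gene lists of the study. Lists were matched by symbol only, since the reference used here has no descriptions, which differs from the plan to use descriptions too. Named genes were the 12 largest increases and decreases among called genes with at least 1 CPM on average, an annotation and no overlap between the diets, up to 4 called members of each list by smallest p (or the most abundant member where none was called), and 5 immune genes or gene families that the study names for this diet. Members and lists were chosen with earlier results of these data known. All columns used were matched to a sample by its label. Columns with comparisons of the authors were not used. Genes were named without sequences, which were not used here.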

Additional observations from a re-analysis of the deposited data

Results flagged for a closer look

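Of 98 groups of 6 fish checked (the AWA and FM fish of the named genes), 2 held a fish that stood apart from the other 5 by Dixon's test, where chance gives about 1 in 20. The gaps are shares of the group's range on the scale of log2(CPM + 0.5). In LOC106605569 AWA replicate 2 had 0.777 CPM and the other AWA fish 2.37 to 3.19 CPM, a gap of 0.763 on that scale. In slc6a6 FM replicate 3 had 231 CPM and the other FM fish 113 to 145 CPM, a gap of 0.65 on the same scale.

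The response to AWA over FM differed between DI and spleen in 26 of 45 called named genes that could be tested for it (edgeR, Benjamini-Hochberg adjusted p under 0.05, values are the log2 fold change in the DI minus that in the spleen). The share over all genes was 3.22%, and the named genes had been called on the same DI values that enter the difference, so the count is a description. It was higher in the DI for LOC106565393 (7.18), gadl1 (5.2), LOC106594092 (5.04), LOC106612300 (3.63), ifngr1b (3.39), neus (3.13), LOC106580760 (2.56), slc6a6 (1.99), s38a2 (1.77), vim (1.63), irf7 (1.52), slc6a6b (1.44), sdf2l1 (1.17), gsr (0.79), copa (0.64) and sel1l (0.62). It was lower in the DI for slc13a5b (-4.54), LOC106573723 (-3.60), cyp4v2b (-3.57), LOC106611988 (-3.44), phyhd1 (-3.14), dlgap4b (-2.73), mot9 (-2.25), LOC106610705 (-2.25), tfeb (-1.80) and slc7a8a (-1.0).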

How the results depend on the processing

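For AWA|FM in the DI, the 1097 called genes became 223 with a log2 fold change limit of 2, 452 with no filter on low counts, 2711 with DESeq2, 3090 with only the 12 libraries compared, 2754 with the tank as a random block, 3526 with counts summed over tanks, 6 with FM replicates 1, 2 and 6 only, 68 with FM replicates 3, 4 and 5 only and 15 in the libraries under 10 CPM of slc15a1, the last a choice made after seeing the data. The number was 984 with RLE size factors, which moved the median of all genes to -0.12, and ranged from 206 to 2083 without single libraries. The fit with the tank as a random block used voom and limma, with inferred tanks and a tank correlation of -0.114. A negative correlation lowers the standard error of a difference between diets. The higher number of that fit therefore does not show that calls survive a control for tank. AWA|SBM and AWA|IWA gave 0 in every edgeR fit, and 68 and 4 with DESeq2. The 1054 genes that differed between the tissues became 188 with the limit of 2, 659 with no filter, 2837 with DESeq2 and 16 under 10 CPM of slc15a1, and ranged from 272 to 3422 without single fish. The causes were not tested. With a replicate block, AWA|FM called 760 genes, and AWA|SBM and AWA|IWA called 0. Replicate numbers were not pairs, as the deviations of same-numbered AWA and FM fish correlated between -0.354 and 0.021. All 1030 alternative values of the 47 called named genes kept their direction. These genes were called on the same fish, and part of them was chosen for no overlap, so the kept direction is a description. Of the 25 named genes that were not called, 2 of 546 values became called. Depth limits genes near 0 CPM in FM, such as LOC106606223, whose fold change depends on the prior count.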

Other observations

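Genes of selenoproteins and of autophagy were looked up after their values had been seen, so their counts are descriptions. Of 14 tested selenoprotein genes, which carry selenocysteine, 4 were lower in AWA and 0 higher, with a median log2 fold change near 0, while 1.28% of all genes were lower and 2.13% higher. The plasma selenium carrier selenop had 69.9 to 105 CPM in AWA and 142 to 457 CPM in FM (log2 fold change -1.69, edgeR adjusted p = 0.0154). The others were selja (-2.15), selenoh (-1.35) and selu (-1.0).

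Of 13 tested autophagy genes, 3 were higher and 1 was lower in AWA, beside the same shares of all genes. The cargo receptor gene sqstm had 152 to 290 CPM in AWA and 76.8 to 125 CPM in FM (log2 fold change 1.19, edgeR adjusted p = 0.0207), and tp53inp2b, which binds autophagosomes, had 83.8 to 164 CPM in AWA and 19.6 to 40.8 CPM in FM (1.97, 0.0207). The protease gene atg4b had a log2 fold change of 0.94 (0.0189) and atg10 one of -0.75 (0.0398).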
